A study of Homo sapiens with 6 samples.

Results

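The sirtuins are the enzymes SIRT1 to SIRT7, and their genes were taken here as 7 of the 20033 protein-coding genes of the GENCODE annotation of the human genome build hg38. Peaks of histone lysine acetylation (Kac) and histone lysine benzoylation (Kbz) were assigned to a sirtuin where they overlapped its gene body extended by 5 kb to either side. The study treated a human liver cancer line, labelled HepG2, with sodium benzoate (SB) at 10 mM for 24 h or left it untreated. For chromatin immunoprecipitation sequencing it made 6 libraries, 1 in each group. The study's RNA sequencing was not used here. Chromatin cut with micrococcal nuclease was precipitated with antibodies against acetyllysine or benzoyllysine whatever the site, and the untreated and treated cells each gave an input, a Kac and a Kbz library. Peak lists for control Kac, SB Kac and SB Kbz were used here. The labels state that no peaks were called for control Kbz, and the input libraries were not analysed here.

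Sirtuins remove acyl groups from lysine in a reaction that consumes NAD+. SIRT1, SIRT6 and SIRT7 act mainly in the nucleus, SIRT7 above all in the nucleolus, SIRT2 is mostly cytoplasmic but also reaches chromatin, and SIRT3, SIRT4 and SIRT5 work in mitochondria. The paper screened all sirtuins and the other histone deacetylases on a benzoylated peptide and reported significant activity for SIRT2 alone. It describes SIRT2 as an eraser of benzoyl groups on histones. The SIRT2 gene is also one of the places where the mark can be read. Acetylation and other acylations of histones at a promoter usually accompany an active gene.

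Each group held 1 library, so no difference between lists had a replicate check and no test was made. Read depth is unknown from the peak lists, and the lists differed in size, with 70326 control Kac peaks, 63282 SB Kac peaks and 24308 Kbz peaks. Peak strength was therefore compared as a rank, the percentile of a peak's fold over background among all peaks of the same list. Genes that mark liver were poorly covered for a line labelled HepG2. Of 13 liver products, the start site of none lay under a peak in any list. ALB, APOB, FGA, FGB, FGG and SERPINA1 had no promoter peak at all. The other liver products did have promoter peaks, 6 of them of control Kac, 7 of SB Kac and 2 of Kbz. The 2 with Kbz were APOA1 and APOA2. Within 3 kb of the canonical start, the strongest APOA1 peaks stood at percentiles 96.6, 95.2 and 95.5 of these lists. Those of APOA2 stood at 87.5, 95.4 and 90.2. Of 9 transcription factors of kidney development, control Kac covered the start of 6, SB Kac of 7 and Kbz of 5. Peaks over start sites were found for 2, 3 and 1 of 7 neuronal genes and for 1, 2 and 0 of 6 blood genes in the same order of lists. Over all protein-coding genes, the shares with the start under a peak were 59.1%, 60.4% and 45.8%. The part of the cells' identity in the sirtuin results was not tested.

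Every sirtuin held peaks of all 3 lists in its extended gene body, as did most genes. Among all protein-coding genes, 82.6% had a control Kac peak there, 81.4% had an SB Kac peak, 72.3% had a Kbz peak and 71.5% had peaks of all 3 lists. All 7 also had a peak within 3 kb of an annotated start site in each list, where the shares of all genes were 76.5%, 75.7% and 64.6%, and 64.1% for all 3 lists together. The start site of the canonical transcript lay under a peak of every list for SIRT1, SIRT2, SIRT3, SIRT4, SIRT5 and SIRT6, and under none for SIRT7. Those 6 of 7 compare with 59.1% of all genes whose start was under control Kac, 60.4% whose start was under SB Kac, 45.8% for Kbz and 44.8% for all 3 lists. Kbz was found beside SB Kac at all 7 sirtuins in the extended gene body and at the promoter, and at all 6 starts under SB Kac, where the shares of all genes with SB Kac were 88.2%, 85.1% and 75.4%. Among stronger peaks, those whose −log10 q reached 5 or more, the start lay under control Kac in 5 of 7 sirtuins (42.4% of all genes), under a peak of SB Kac in 5 (49.8%) and under Kbz in 2, SIRT1 and SIRT5 (33.7%).

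**Figure D1:**
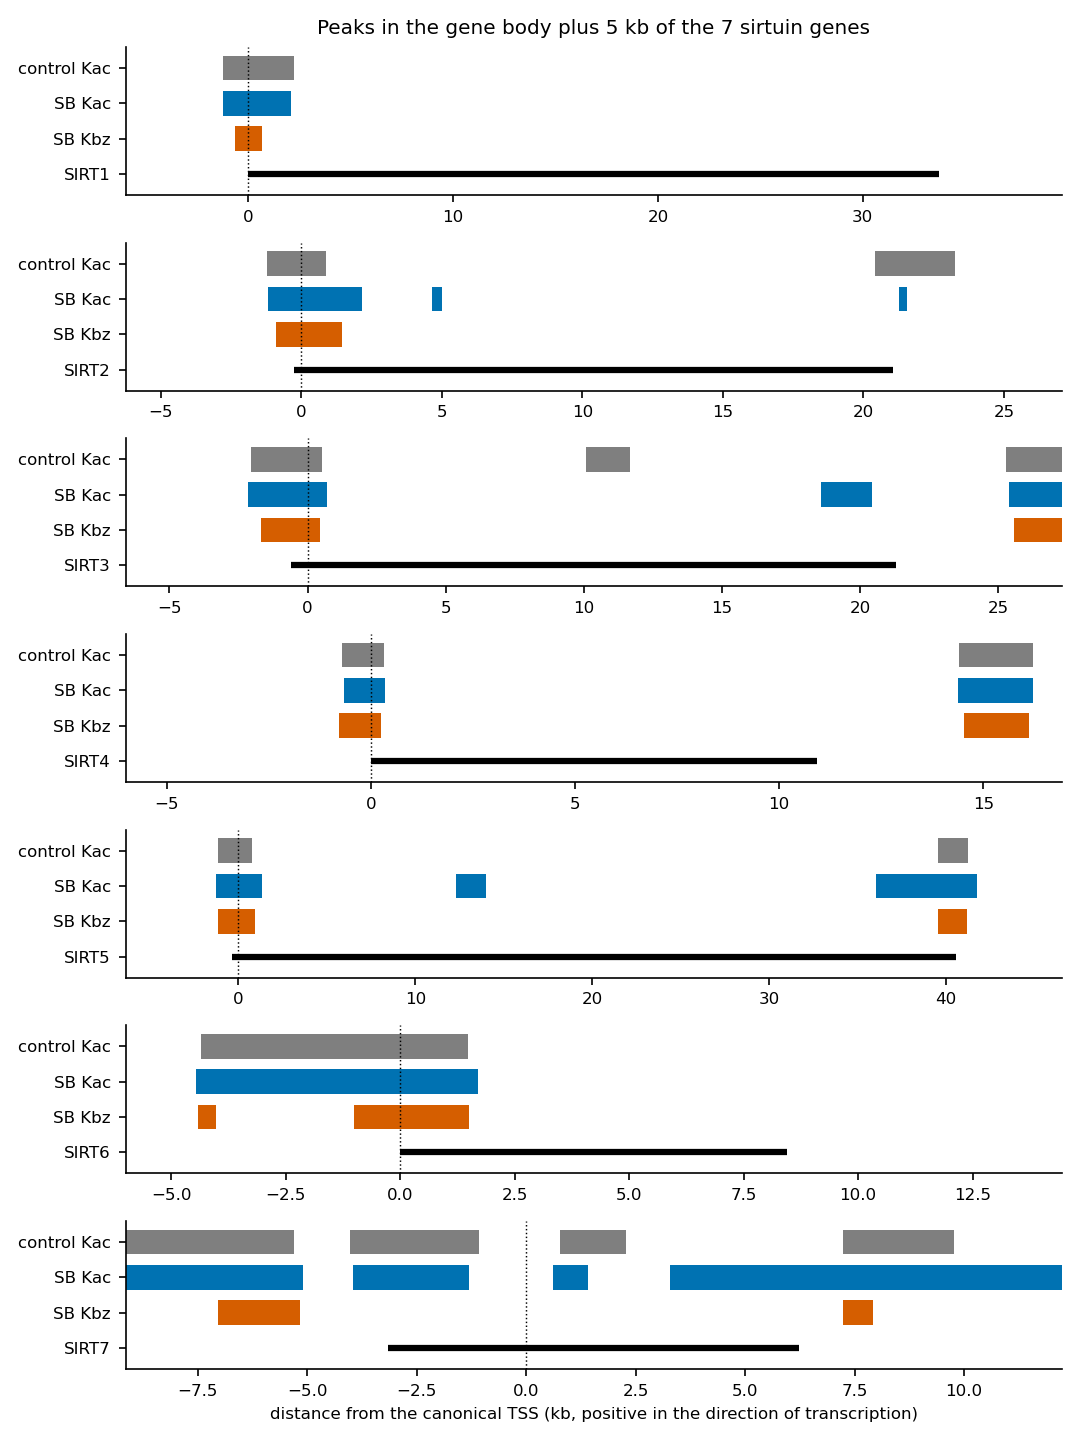
Peaks of control Kac, SB Kac and SB Kbz around each sirtuin gene, with distance from the canonical start site along the x axis and one row for each list. Peaks of all 3 lists overlie the start of SIRT1 to SIRT6, whereas at SIRT7 the peaks lie to either side of it, and some SIRT3 and SIRT7 peaks run past the edge of the plot.

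The start regions of the sirtuins differ in base composition, and the stretches below let that be read against the peaks. SIRT1, SIRT4 and SIRT6 are shown by the bases before the first exon from the RefSeq promoter table of GRCh38.p14. The SIRT5 bases, from the same table, hold no exon and lie before its canonical start but after its outermost annotated start. All 4 stretches lie under peaks of the 3 lists. SIRT2, whose table entry holds almost only exon bases, is shown by 250 bases of its first intron in hg38, from 113 to 362 bp after the canonical start and under the Kbz peak. Each runs 5′ to 3′ on the strand of the sirtuin, and capitals mark CpG, the dinucleotide that is dense in CpG islands.
SIRT1 chr10:67884406-67884655 (+ strand): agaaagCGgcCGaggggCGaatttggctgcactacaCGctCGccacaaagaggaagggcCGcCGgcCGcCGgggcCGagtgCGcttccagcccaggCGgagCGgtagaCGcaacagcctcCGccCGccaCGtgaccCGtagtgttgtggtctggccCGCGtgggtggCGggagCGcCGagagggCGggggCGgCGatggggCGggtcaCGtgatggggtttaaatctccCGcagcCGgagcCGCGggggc
SIRT2 chr19:38899256-38899505 (- strand): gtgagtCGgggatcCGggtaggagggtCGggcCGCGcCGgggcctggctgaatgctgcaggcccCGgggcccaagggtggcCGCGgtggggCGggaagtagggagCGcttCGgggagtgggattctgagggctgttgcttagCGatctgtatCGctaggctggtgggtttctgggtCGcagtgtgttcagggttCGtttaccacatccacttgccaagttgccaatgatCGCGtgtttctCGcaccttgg
SIRT4 chr12:120302071-120302315 (+ strand): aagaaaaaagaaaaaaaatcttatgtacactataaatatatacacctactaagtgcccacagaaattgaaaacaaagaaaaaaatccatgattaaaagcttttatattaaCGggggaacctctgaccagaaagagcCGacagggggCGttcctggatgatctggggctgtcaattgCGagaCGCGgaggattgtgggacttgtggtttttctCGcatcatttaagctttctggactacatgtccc
SIRT5 chr6:13574307-13574528 (+ strand): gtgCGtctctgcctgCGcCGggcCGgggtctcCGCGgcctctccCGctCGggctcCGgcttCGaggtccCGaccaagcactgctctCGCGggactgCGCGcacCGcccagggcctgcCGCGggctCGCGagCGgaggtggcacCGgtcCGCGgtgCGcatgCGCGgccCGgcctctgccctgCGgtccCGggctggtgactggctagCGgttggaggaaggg
SIRT6 chr19:4182567-4182688 (- strand): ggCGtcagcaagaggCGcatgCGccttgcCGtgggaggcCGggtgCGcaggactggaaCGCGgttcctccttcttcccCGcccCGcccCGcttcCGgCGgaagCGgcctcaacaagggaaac

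The SIRT4 stretch stands apart from the others in composition. It holds 7 CpG in 245 bases at 40.4% GC, against 32 in 250 at SIRT1 (72% GC), 31 in 222 at SIRT5 (77.0% GC), 14 in 122 at SIRT6 (70.5% GC) and 19 in 250 in the SIRT2 intron (64% GC). The table gave 9 promoters of 300 bases for 6 of the 7 sirtuins. Their ratio of observed to expected CpG was lowest at the SIRT4 canonical start, at 0.679, and highest at SIRT1, above the median of 0.579 over 35116 promoters in every case. Motifs were searched on both strands of these 300 bases. GGGCGG, in 45.0% of all promoters, occurred at SIRT1, SIRT3, SIRT5 and SIRT6, with 4 matches each at SIRT1 and at the SIRT6 canonical start. CCAAT, in 34.6%, occurred at SIRT2 and SIRT6. The palindromic NRF1 motif, found in 1.24% of all promoters, was present at SIRT5 and at 1 of the 2 SIRT6 starts. TATAAA, in 11.5% of promoters, occurred 2 times in the promoter at the SIRT4 canonical start. SIRT1 held 2 matches to CACGTG, which 7.26% of promoters contain. A match describes the letters and does not show that a factor was bound.

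SIRT2 (ENSG00000068903.21, chr19:38878555-38899862, minus strand) shares its promoter with NFKBIB, which encodes an inhibitor of NF-kB. The NFKBIB start lies 351 bp upstream on the opposite strand, so a peak there cannot be given to either gene alone. Control Kac covered the shared start with a peak of 2096 bp (chr19:38898720-38900815), SB Kac with one of 3363 bp (chr19:38897447-38900809) and Kbz with one of 2347 bp (chr19:38898175-38900521). The upstream edges of the Kac peaks lay 1197 and 1191 bp before the canonical start, whereas the downstream edge lay 898 bp into the gene in control cells and 2171 bp after SB. Kbz reached 1443 bp into the gene and lay wholly inside the SB Kac peak. Fold over background was 4.65 for control Kac, 4.44 after SB and 3.49 for benzoylation, which placed the peaks at percentiles 89.7, 83.7 and 35.1 of their lists. By fold the SIRT2 Kbz peak stood just below that of SIRT4, at 36.9, but ranked by −log10 q it was at 40.0, above SIRT4 at 32.0, SIRT6 at 36.7 and SIRT3 at 39.4, so the order of these genes is not fixed. Its Kbz rank minus its SB Kac rank was -48.6 percentile points, against a median of -18.0 over 9121 genes.

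Elsewhere in SIRT2 the Kac lists differed and Kbz had no peak. At the 3′ end, a control Kac peak of 2861 bp lay over the start of the neighbour RINL. After SB only 317 bp were called there, 11.1% of the control peak. A short SB Kac peak of 379 bp, 4638 bp into the gene and at percentile 26.7, met no peak of control Kac or Kbz. Over 6 values, the covered share and the rank of the strongest peak within 3 kb of the start in each list, NFKBIB was identical to SIRT2 because the peaks are the same. The next nearest genes were ADCY3 at a Euclidean distance of 9.48, PSMG1 at 12.3, and SHLD3 and TRAPPC13, which had identical values, at 12.7. Among sirtuins, SIRT3 was the nearest to SIRT2, at 16.2.

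SIRT1 (ENSG00000096717.12, chr10:67884656-67918390, plus strand), a nuclear deacetylase of histones and transcription factors, had the simplest pattern, with 1 peak in each list and no other protein-coding start within 46468 bp. The control Kac peak ran from 1258 bp before to 2246 bp after the start, and the SB Kac peak from 1248 to 2057 bp. The shared bases made up 94.3% of their union. Kbz was narrower, from 658 bp before to 647 bp after, or 39.5% of the SB Kac length. Fold was 4.35, 3.96 and 4.08 in the order control Kac, SB Kac, Kbz, at percentiles 85.4, 77.1 and 54.5. A Kbz fold close to that of Kac therefore stood at a lower rank in its own list.

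SIRT6 (ENSG00000077463.15, chr19:4174109-4182566, minus strand), a chromatin-bound deacylase linked to DNA repair and glucose metabolism, starts 126 bp from ANKRD24 on the opposite strand. A single broad Kac peak covered both starts, 5831 bp in control cells and 6175 bp after SB, of which 4359 and 4468 bp lay upstream of SIRT6. Kbz broke into a pair of separate peaks inside it, 2509 bp over the starts and 413 bp toward the far edge of the Kac peak in ANKRD24. The Kac peaks ranked at 73.8 and 74.7 and the Kbz peak over the start at 41.9, below the 56.4 of the short distal one.

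SIRT7 (ENSG00000187531.14, chr17:81911939-81921323, minus strand) is known for acting on ribosomal RNA gene chromatin. Kac peaks covered 50.7% of its extended gene body in control cells and 74.6% after SB, the highest shares in the family. That cover included part of a peak over the start of the neighbour MAFG in both conditions, of 6093 and 7794 bp. After SB it also included part of a peak of 9457 bp over the PCYT2 start and an annotated SIRT7 start. The canonical SIRT7 start lay under no Kac peak. The nearest control Kac peaks ended 1084 bp upstream and began 769 bp downstream of that start, and the nearest SB Kac peaks lay at 1298 bp and 613 bp. The upstream peaks, at percentiles 37.0 and 35.3, covered the outermost annotated SIRT7 start, which is 1 of 18 distinct starts. Among all genes, 10.9% had Kac of both conditions at a promoter but their canonical start under no peak. Kbz had no peak in the SIRT7 gene body. Its 2 Kbz peaks lay over the start of the neighbour MAFG, at percentile 43.5, and near PCYT2, at percentile 4.49, so SIRT7 counts as having promoter Kbz only through annotated starts upstream of the canonical one, on the MAFG side.

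SIRT5 (ENSG00000124523.17, chr6:13574227-13615158, plus strand), which removes malonyl, succinyl and glutaryl groups in mitochondria, had the strongest Kbz in the family. Its start peak measured 1959 bp for control Kac, 2561 bp after SB and 2097 bp for Kbz. Fold was 4.34, 6.93 and 8.01, and the percentiles were 85.2, 98.5 and 98.2. SIRT5 was the only sirtuin whose Kbz peak at the start ranked above the median of all genes, and it stood at the 97.4th percentile of the 9170 genes with Kbz there. A second strong Kbz peak, of fold 8.16 and percentile 98.4, covered the start of NOL7, a nucleolar protein gene that begins beyond the SIRT5 3′ end, 40734 bp from the SIRT5 start. SB Kac spread over that region as a peak of 5708 bp, against 1717 bp in control Kac.

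SIRT3 (ENSG00000142082.15, chr11:215030-236931, minus strand), the main mitochondrial deacetylase, shares its promoter with PSMD13, a proteasome subunit gene that starts 634 bp upstream on the opposite strand. Peaks over the starts measured 2586, 2881 and 2141 bp in the same order of lists, with 2052, 2173 and 1689 bp of them on the PSMD13 side. The fold values of 4.09, 4.19 and 3.64 gave percentiles of 80.8, 80.6 and 40.5. The SB Kac rank minus the control Kac rank was -0.18 percentile points. Past the SIRT3 3′ end, peaks of all 3 lists covered the starts of BET1L and RIC8A.

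SIRT4 (ENSG00000089163.4, chr12:120302316-120313249, plus strand), a mitochondrial enzyme of amino acid and lipid metabolism, had the shortest start peaks, at 1037, 1000 and 1023 bp. They lay over the stretch with the fewest CpG of those printed above. Fold was 5.78 for control Kac, 4.47 after SB and 3.54 for benzoylation. The Kac percentile was 97.8 in control cells, the highest control rank of the family, and 84.1 after SB, with Kbz at 36.9. SIRT4 was also the sirtuin whose Kbz start peak was longer than the SB Kac peak and lay partly outside it, with 87.8% inside. Another peak of all 3 lists, 1608 to 1841 bp long and beginning 14390 to 14521 bp past the start, lay at no annotated coding promoter. Its percentiles were 98.7, 86.8 and 68.3.

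**Figure D2:**
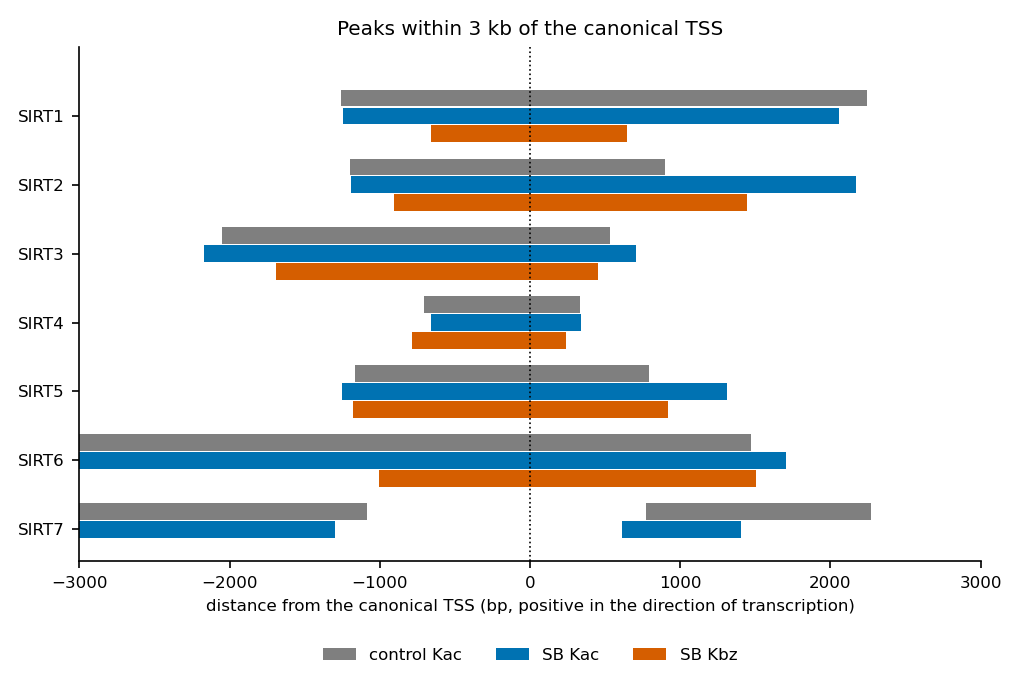
Peaks over or beside each canonical start, drawn from 3 kb before to 3 kb after it with the direction of transcription to the right, for control Kac, SB Kac and SB Kbz. Kbz lies within the SB Kac extent at SIRT1, SIRT2, SIRT3, SIRT5 and SIRT6, no Kbz is drawn at SIRT7, and the Kac peaks of SIRT6 and SIRT7 run past the plotted 3 kb.

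Across the family, Kbz at the start ranked low. For the 6 genes with a start under Kbz the median percentile was 41.2, with SIRT1, SIRT2, SIRT3, SIRT4 and SIRT6 below and SIRT5 above the median of 70.8 over all genes with Kbz at the start (quartiles 51.3 and 85.6). Control Kac at the same starts had a median of 85.3 against 83.8 for all genes, with 2 sirtuins below and 4 above. SB Kac had a median of 82.1 against 87.2, again with 5 below and 1 above, and SIRT1 (77.1) and SIRT6 (74.7) lay below the lower quartile of all genes, 77.4. The gap between the medians was thus wider for Kbz than for SB Kac, with the same tally of genes on either side. Going from control to SB, the Kac rank differed by -13.8 points at SIRT4, -8.30 at SIRT1, -6.00 at SIRT2, -0.18 at SIRT3, 0.89 at SIRT6 and 13.3 at SIRT5. The median over 11159 genes was 2.56, with 5% of genes below -12.3, so SIRT4 alone among the sirtuins lay outside the 5th to 95th percentile range. Ranking by peak length instead of fold put the Kbz median at 84.3 against 77.0 for all genes. The low position thus holds for the fold of the peaks and not for their length.

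**Figure D3:**
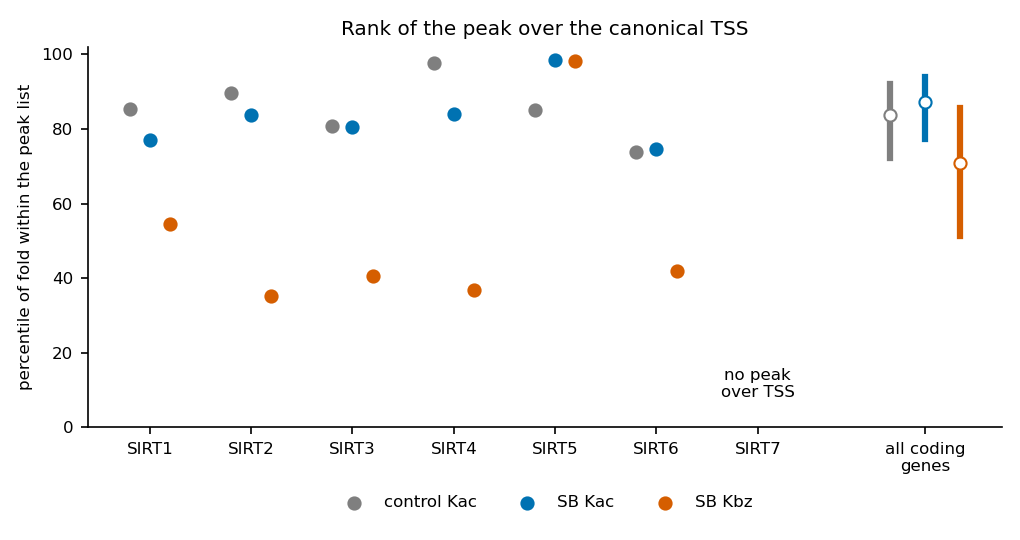
Percentile of fold of the peak over the canonical start within its own list for the 6 sirtuins with such a peak, beside the median and quartiles of all genes with one. Kbz sits below the all-gene median of 70.8 for every sirtuin plotted except SIRT5, at 98.2.

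Most peaks in the sirtuin windows met a peak of another list. Of 15 control Kac peaks, 14 met an SB Kac peak (93.3%, 95% Wilson interval 70.2 to 98.8), against 69.7% of control Kac peaks in the windows of all genes. Of 17 SB Kac peaks, 14 met control Kac (82.4%, 59.0 to 93.8) and 11 met Kbz (64.7%, 41.3 to 82.7), against 71.7% and 36.4% over all windows. All 12 Kbz peaks met SB Kac (75.8 to 100) and all 12 met control Kac, as did 95.5% and 94.6% of Kbz peaks over all windows. The intervals cover counting error only. Peaks over all windows were not matched to those of the sirtuins for position at a promoter. In the sirtuin windows, only 2 of the 15 control Kac peaks, 1 of the 17 SB Kac peaks and 1 of the 12 Kbz peaks lay at no promoter. The part of promoter position in these shares was not tested. The Kac peaks without a partner were weak. SIRT3 had 1 in control cells only (percentile 22.2), and SIRT2, SIRT3 and SIRT5 had 1 each after SB only, at percentiles 26.7, 26.1 and 25.1. None of these met Kbz.

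Other enzymes of lysine deacylation and NAD metabolism gave a frame for the sirtuins. Among all protein-coding genes, 76.5% had promoter control Kac, 75.7% promoter SB Kac and 64.6% promoter Kbz. The canonical start lay under these peaks in 59.1%, 60.4% and 45.8% of all genes. Of the 11 zinc-dependent deacetylases HDAC1 to HDAC11, which need no NAD+, all had promoter Kac in both conditions and 10 had promoter Kbz, HDAC9 being without it. Their canonical starts lay under control Kac in 8 cases, SB Kac in 9 and Kbz in 6, the last at a median percentile of 68.2, with 3 below and 3 above the all-gene median. Of 18 genes of NAD synthesis, recycling and consumption, 16 had promoter Kac in each condition and 13 had Kbz. The NAD-cleaving ectoenzyme genes CD38 and BST1 had no promoter peak, and NMNAT3, SARM1 and NMRK2 had Kac but no Kbz. Canonical starts lay under control Kac in 13, SB Kac in 12 and Kbz in 8 of them, and those 8 had a median Kbz percentile of 79.0, with 2 below and 6 above the all-gene median. NAMPT, the rate-limiting enzyme of NAD salvage, had no Kbz over its canonical start but a peak at percentile 94.4 within 3 kb, and the de novo enzyme QPRT had one at 93.8, whereas NMNAT2 stood at 22.9 and NAPRT at 9.70. Taking the strongest Kbz peak within 3 kb of every listed gene, with genes lacking one at 0, the medians were 40.5 for the 7 sirtuins, 63.5 for the 11 zinc-dependent deacetylases and 35.1 for the 18 NAD genes, so the order of sirtuins and NAD genes turns with the genes counted. Over 11159 genes, the median difference in Kac rank at the start, SB minus control, was 2.56 points, so most genes ranked higher after SB. The rank was lower after SB in 4 sirtuins and higher in 2. It was lower in 1 zinc-dependent deacetylase and higher in 7, and lower in 6 NAD genes and higher in 6. These counts describe the lists and no difference between them was tested.

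**Figure D4:**
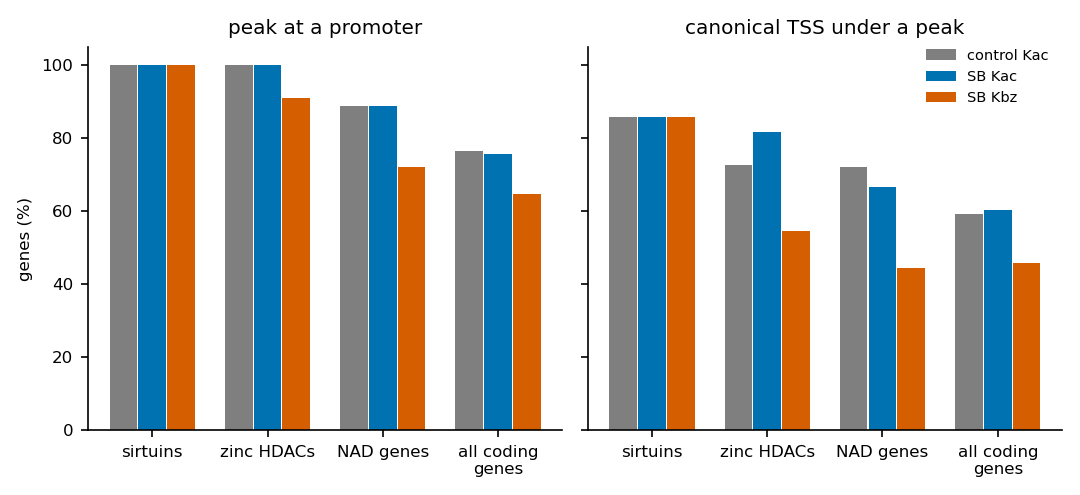
Share of genes in percent with a peak at a promoter (left) or with the canonical start under a peak (right) for the 7 sirtuins, 11 zinc-dependent deacetylases, 18 NAD genes and all protein-coding genes, with one bar for each list. The right-hand Kbz bars stand for 6 sirtuins, 6 deacetylases and 8 NAD genes, beside 45.8% of all genes.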

How the data were processed

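Chromatin immunoprecipitation libraries were read as single 50 bp reads. According to the submitters' processing notes and the study's methods, the authors aligned them to hg38 with Bowtie2 (2.2.6), kept unique reads, removed duplicates with SAMtools (0.1.19) and called broad peaks with MACS2 (2.1.1) at a stated FDR of 0.01. The deposited lists give each peak's coordinates, a score, a fold ratio over background, and the −log10 of its p-value and q-value, and they reach a −log10 q of 1.31 in each list, that is, weaker peaks than the stated FDR. The background track and broad settings are not given in the sources used here. The lists hold no read counts, so depth is unknown.

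Peaks were joined to GENCODE release 44 genes by an overlap of at least 1 bp, with 3 control Kac peaks on other sequences left out. Promoters were 3 kb to either side of any annotated start, following the study. The join was tested on simulated data, and 42 values were compared with bedtools 2.31.1, of which 0 differed. Python 3.11.15 with pandas 2.3.3 and scipy 1.17.1 was used. Each list is 1 library, so no test was made. Shares of peaks in the sirtuin windows have 95% Wilson intervals, which treat peaks of the same gene as independent. Genes named beside the sirtuins were those whose promoter held part of a sirtuin peak or whose start was nearest, the 5 nearest to SIRT2 in peak pattern, and from the HDAC and NAD lists those without a promoter peak and up to 4 others. The members, lists and markers were chosen with earlier results of these data known. A further marker list, of liver transcription factors, is not reported here.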

Additional observations from a re-analysis of the deposited data

How the results depend on the processing

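Of 107 recomputed summary values for the family, 91 stayed within 1.5 times the main count, 10 percentile points or their interval, and 16 moved. This tolerance is wide for counts of at most 7 genes. In each list the canonical starts under a peak fell from 6 to 4 among the 15000 strongest peaks, which counted as unchanged. Merging peaks within 1 kb left the peak counts as they were. A −log10 q of at least 5 left 8, 9 and 6 peaks in the sirtuin windows for control Kac, SB Kac and Kbz. That cut-off left 3 sirtuins with promoter Kbz, against 45.4% of all genes. Kbz lay over the canonical start in 2 (SIRT1 and SIRT5), against 33.7% of all genes. The median of Kbz within 3 kb of the start was 0 bp, and 100% of the control Kac peaks met SB Kac. The 15000 strongest peaks of each list left 7 and 8 Kac peaks in the windows and medians of 1037, 1000 and 1306 bp within 3 kb for control Kac, SB Kac and Kbz. Both settings keep fewer peaks by construction. Without the 5 kb flanks 7 Kbz peaks remained, and asking that 50% of a peak be covered lowered the share of SB Kac peaks with Kbz to 41.2%. Ranking by length, an alternative chosen after seeing the data, gave medians of 75.1 for control Kac and 84.3 for Kbz, the cause was not tested, while ranking by −log10 q, also added then, kept the Kbz median at 39.7 against 70.2 for all genes. No paired analysis was possible because the lists come from single libraries, and for the same reason no replicate could be left out. Differences between lists cannot be told apart from differences in depth, antibody or calling.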

Other observations

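RefSeq lists a further SIRT4 start at chr12:120292189, 10132 bp before the canonical one and outside the window used for the gene. A peak of each list covered it, at percentiles 98.5, 98.4 and 97.4 for control Kac, Kac after SB and Kbz, where the Kbz fold was 7.70. These peaks also hold the starts of 2 U4 small nuclear RNA genes, RNU4-1 and RNU4-2, and the nearest, RNU4-2, begins 286 bp from the RefSeq start, so the peaks cannot be given to SIRT4 alone.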
